A study of Homo sapiens with 10 samples.

Results

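The BTG and TOB genes code for a small family of antiproliferative proteins, and 5 of them, BTG1, BTG2, BTG3, TOB1 and TOB2, were followed here by name among the 31015 genes counted in the series. All 5 had enough reads to be fitted with the 9946 genes tested for newly made RNA. They were chosen with the behaviour of their labelled reads, all reads and labelled share across the treatments already known. These values, and the calls of the fit for these genes, are therefore given below as a description and not as a test. The oocyte member BTG4 was listed with 0 reads in each of the 10 libraries, which allows up to 3 reads per library, a limit of 0.0560 to 0.0845 RPM on the scale of mapped reads.

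The study used SLAM-seq, in which cells take up 4-thiouridine and the thiouridine in newly made RNA is read as a T>C change after alkylation. The cells were 22RV1, an established human line grown from castration-resistant prostate tumour, so every value comes from 1 genetic background. There were 5 groups of 2 libraries: control cells with no treatment, cells given 20 μM SRPIN340, cells given 50 μM Endovion, cells given THZ531, and cells given THZ531 and Endovion together. Treatment lasted 4 h, and 4-thiouridine was present for the last 10 min in every group, controls included. SRPIN340 inhibits SRPK1, a kinase of splicing factors, and Endovion (SCO-101) was used as a structurally distinct inhibitor of the same kinase. THZ531 is a covalent inhibitor of the transcription elongation kinases CDK12 and CDK13, and the sources used here give its dose as 100 nM in one place and 150 nM in another. Nothing states that the 2 libraries of a group came from separate cultures, so p-values and standard errors measure the spread between these libraries, which may be technical.

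Each library held 35517462 to 53592904 mapped reads, of which 1011598 to 1576106 T>C reads fell in genes. Between 5.04% and 5.70% of gene reads carried a T>C change, and the 2 control libraries, at 5.63% and 5.70%, were among the highest. The libraries expressed the luminal marker KRT18, at 354 to 484 CPM (counts scaled to a common library size) of all reads. Of the 9 leukocyte, stromal and endothelial markers, 4 (CD3E, COL1A2, VWF and CDH5) were at 0 reads in all libraries, and COL1A1 reached at most 3.27 CPM. Their summed level was 0 to 0.311 CPM for the leukocyte, 0 to 0.0333 CPM for the endothelial and 2.03 to 3.47 CPM for the stromal markers over all groups.

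As background, BTG and TOB proteins share an amino-terminal domain that binds CNOT7 and CNOT8, the catalytic CAF1 subunits of the CCR4-NOT complex, which shortens the poly(A) tails of mRNAs. TOB1 and TOB2 also carry motifs that bind the cytoplasmic poly(A)-binding protein PABPC1, while BTG1 and BTG2 bind PABPC1 through its RNA recognition motif. Through these contacts the family promotes tail removal, and overexpression of its members slows the cell cycle. BTG2 is a known target gene of p53, and BTG1 and BTG2 also bind the arginine methyltransferase PRMT1 and the homeobox protein HOXB9. Their own mRNAs are known as short-lived in many cells.

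The reads came from a 3′ end library, so each gene was counted over the last stretch of its transcript, and each of the 5 genes had 1 counted interval. On hg38 these intervals, in the 3′ untranslated region of the last exon of each gene (exon 6 of BTG3 and exon 2 of the other 4), were chr12:92140278-92144079 for BTG1, chr1:203307439-203309602 for BTG2, chr21:17593653-17594092 for BTG3, chr17:50862223-50862979 for TOB1 and chr22:41433492-41436310 for TOB2. BTG2 lies on the plus strand and the other 4 on the minus strand. The annotated span of the noncoding gene LINC01619 runs on the same strand as BTG1 and covers 2637 bases of its interval, so reads of that transcript cannot be told apart from BTG1 reads there. Processed pseudogenes of BTG1, BTG3 and TOB2 exist elsewhere in the genome, and none of them was counted here.

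The following 30-base windows, 5′ to 3′ on the transcript strand, are shown because they sit at the ends from which these reads were primed. Capitals mark a polyadenylation signal, AATAAA or its variant ATTAAA, searched on the transcript strand in the last 300 bases of each interval; where a gene had several, the one nearest the end is marked.
BTG1: gtccaagataggAATAAAaaaatgtagttc
BTG2: ttttgttactttAATAAAaatgtagtagga
BTG3: catgtagttgcaAATAAAaaatagtttgag
TOB1: gtttgtattaaaattctttaaaATTAAAaa
TOB2: ttttaagtttgtATTAAAagcatgatacat
In the order listed, the windows span chr12:92140280-92140309, chr1:203309569-203309598, chr21:17593659-17593688, chr17:50862223-50862252 and chr22:41433498-41433527. The marked signals begin 20 to 24 bases before the end of the interval in BTG1, BTG2, BTG3 and TOB2 and 8 bases before it in TOB1, whose window also holds a copy of ATTAAA in lower case that begins 24 bases before the end. The 3 BTG genes had AATAAA and both TOB genes had only ATTAAA in that stretch. Over 8678 gene ends of the same length, 73.4% held AATAAA and 32.9% held ATTAAA. The AU-rich nonamer TTATTTATT, held by 1.87% of these ends, was found in none of the 5.

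A match to TGTANATA, the letters that Pumilio proteins bind, is shown for BTG1 because Pumilio proteins are among the adaptors that bring CCR4-NOT to mRNAs. It began 292 bases before the end of the interval, in chr12:92140551-92140580 on the minus strand, with the match in capitals.
BTG1 Pumilio match: atatatgggacTGTAAATAgagaaatctgt
The BTG1 interval held 4 such matches over its 3802 bases. The shorter intervals of the other 4 genes, from 440 bases (BTG3) to 2819 bases (TOB2), held none. No background was counted over whole intervals, so nothing is read from this difference. Of all 8678 gene ends, 11.2% held the letters in their last 300 bases.

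BTG1 was lower in both Endovion libraries than in both control libraries, in labelled and in all reads alike, and lower again when Endovion was added to THZ531. Its T>C reads stood at 4703 and 5415 CPM in the control libraries, at 3787 and 3845 CPM with SRPIN340, at 2723 and 2816 CPM with Endovion, at 5081 and 5059 CPM with THZ531, and at 2741 and 3485 CPM with the combination. THZ531 and control overlapped at the top, SRPIN340 lay below them without overlap, and the combination overlapped Endovion alone at the bottom. Overlap between groups is given here and below as a description only. Groups of 2 libraries can separate by chance, and the share of all genes that did so was not counted. On the log2 scale the fitted difference in T>C reads was -0.87 ± 0.14 (SE, n = 2 libraries per group) for Endovion against control, a level 1.83-fold lower. It was -0.41 ± 0.14 for SRPIN340, 0.00 ± 0.13 for THZ531 and -0.70 ± 0.14 for the combination against control.

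**Figure D1:**
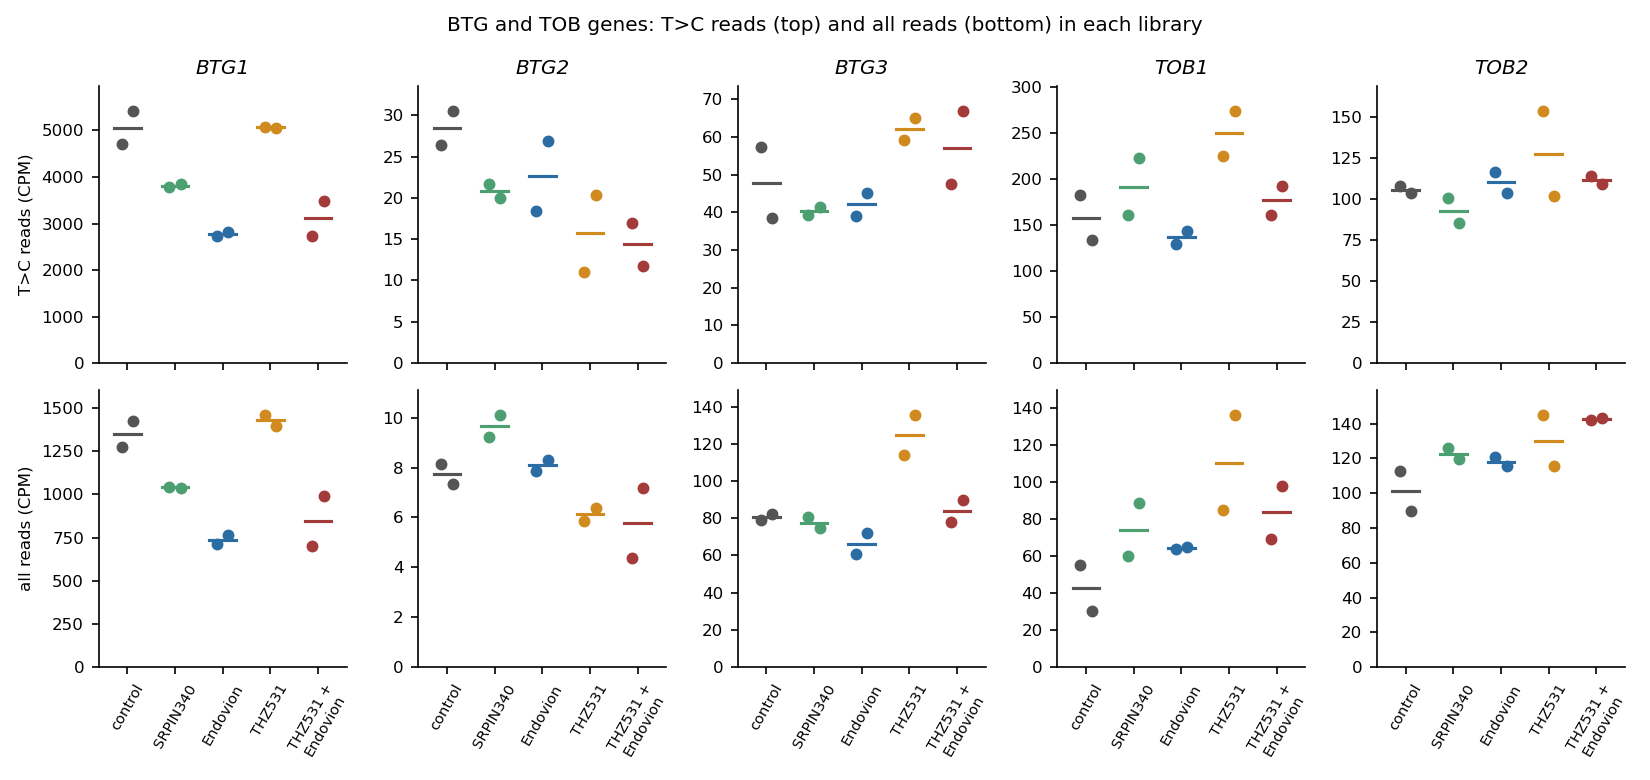
CPM of T>C reads (top row) and of all reads (bottom row) for the 5 genes in the 10 libraries, with points for libraries, short lines for the mean of 2 libraries, and axes that start at 0 and differ between panels. BTG1 is lowest in the 4 libraries that received Endovion, while TOB1 in all reads is lowest in the 2 control libraries, at 54.9 and 30.3 CPM.

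All BTG1 reads followed the same order. They stood at 1274 and 1424 CPM in control, 1042 and 1040 CPM with SRPIN340, 714 and 763 CPM with Endovion, 1459 and 1398 CPM with THZ531, and 703 and 990 CPM with the combination. The log2 difference in all reads was -0.87 ± 0.13 for Endovion against control and -0.67 ± 0.13 for the combination against control. With SRPIN340 it was -0.37 ± 0.13, and with THZ531 0.08 ± 0.13. The doses of SRPIN340 and Endovion differ, so their values stand side by side without a comparison.

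The combination set against THZ531 uses no control library, and BTG1 was lower there too. Its log2 difference was -0.70 ± 0.14 in T>C reads and -0.75 ± 0.13 in all reads, with both combination libraries below both THZ531 libraries. The second combination library was the less affected of the pair. Without the first combination library the difference in T>C reads came to -0.54, and without the second to -0.88. The effect of Endovion on BTG1 with THZ531 present differed from its effect without THZ531 by 0.17 ± 0.19 in T>C reads, less than 1 SE; this interaction was called for 0 of the 5 genes and for 0.302% of all genes.

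The labelled share, the percentage of a gene's reads that carried a T>C change, hardly moved for BTG1. It was 20.4% and 19.9% in control, 20.1% and 18.8% with SRPIN340, 19.02% and 18.98% with Endovion, 19.7% and 19.1% with THZ531, and 20.2% and 18.7% with the combination. With 15422 to 39579 BTG1 reads per library, the exact 95% binomial intervals were narrow, for example 20.0% to 20.9% in the first control library and 18.5% to 19.6% in the first Endovion library. These intervals cover counting error only. As a raw percentage, the share with Endovion and with THZ531 lay slightly below both control libraries. The fitted difference is relative to the share of the whole library and had the opposite sign. On the log2 scale it lay between 0.01 ± 0.07 (THZ531) and 0.07 ± 0.08 (combination) against control, and was 0.06 ± 0.08 for the combination against THZ531.

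**Figure D2:**
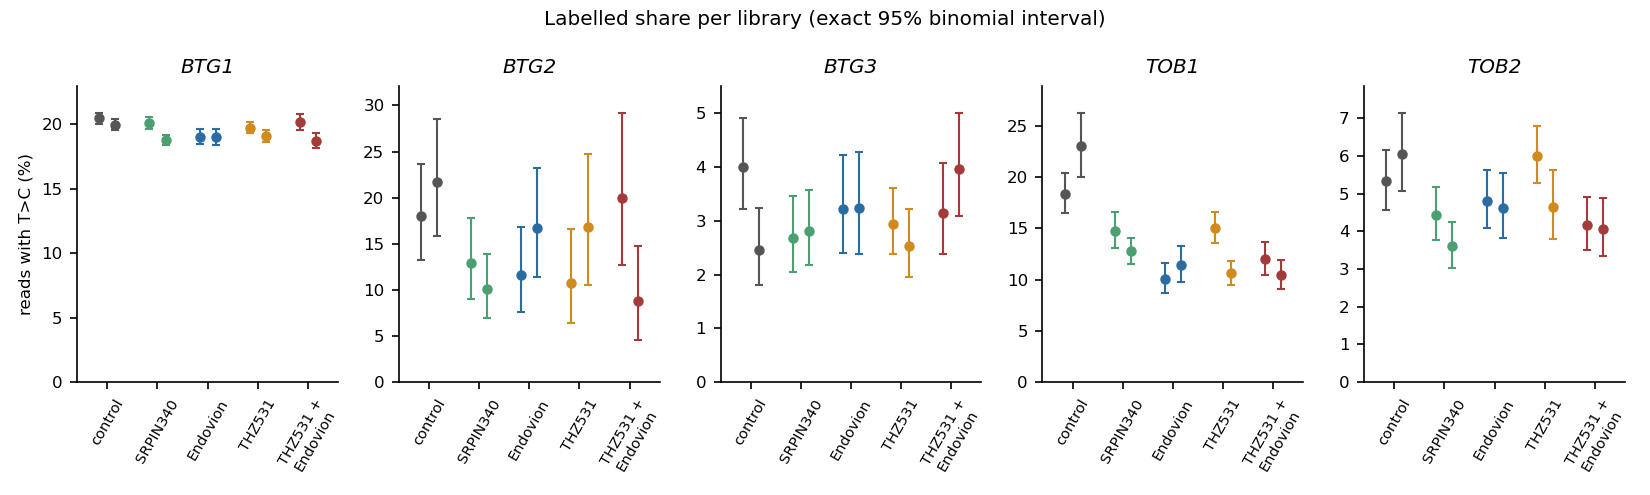
Percentage of each gene's reads with a T>C change in the 10 libraries, with 2 points per group and exact 95% binomial intervals; axes start at 0 and differ between panels. BTG1 stays between 18.7% and 20.4%, whereas the TOB1 points of all 8 treated libraries lie below those of the 2 control libraries.

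BTG1 was also one of the most strongly labelled of all genes. In control its share of 20.2% stood at the 96.8th percentile of the 9946 genes tested, whose median was 5.2%. A share of reads depends on how many T positions a read covers, so the rate per covered T is the better scale between genes: 0.759% of covered T positions in BTG1 were converted in control, at the 92.5th percentile, against a median of 0.232%. BTG2 (0.782%) and TOB1 (0.972%) stood near it, at the 92.9th and 95.4th percentile. TOB2 (0.255%) lay near the median of all genes, and BTG3 (0.129%) lay at the 17.2nd percentile. BTG1, BTG2 and TOB1 were thus labelled at more than 3 times the median rate and BTG3 at a rate below it.

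The promoter of BTG1 is shown because BTG1 was lower in T>C reads and all reads with Endovion. The 250 bases upstream of its RefSeq start (GRCh38.p14, chr12:92145847-92146096, minus strand) read, 5′ to 3′, as follows, with matches to 4 short motifs in capitals.
BTG1 upstream: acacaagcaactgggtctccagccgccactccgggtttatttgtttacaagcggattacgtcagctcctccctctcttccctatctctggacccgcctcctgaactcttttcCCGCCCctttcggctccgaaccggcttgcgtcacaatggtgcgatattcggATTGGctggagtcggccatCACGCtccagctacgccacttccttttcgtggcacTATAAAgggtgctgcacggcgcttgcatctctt
In order, the capitals are GGGCGG (a GC box, read as CCGCCC) 138 bases before the start, CCAAT (read as ATTGG) 87 bases before it, GCGTG (core letters of the xenobiotic response element, read as CACGC) 68 bases before it, and TATAAA 33 bases before it. Both strands were searched over the 300 bases from 250 before to 50 after each start. Among 35116 promoters, 45.0% held GGGCGG, 34.6% held CCAAT, 36.5% held GCGTG and 11.5% held TATAAA. BTG1 was the only one of the 5 genes with TATAAA in this stretch. The AP-1 letters TGANTCA (7.71% of promoters), the CRE TGACGTCA (1.85%) and the E-box CACGTG (7.26%) were found in none of the 5.

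TOB1 was lowest in control in all reads and highest with THZ531. It had 54.9 and 30.3 CPM of all reads in control, 59.9 and 88.4 CPM with SRPIN340, 64.0 and 64.6 CPM with Endovion, 84.8 and 136 CPM with THZ531, and 69.4 and 97.9 CPM with the combination. Each treated library lay above both control libraries, but the control libraries themselves were far apart. The log2 difference in all reads was 1.37 ± 0.38 with THZ531, 0.97 ± 0.38 with the combination, 0.80 ± 0.38 with SRPIN340 and 0.59 ± 0.38 with Endovion, all against the same 2 control libraries. The THZ531 value ranged from 0.94 (without the second THZ531 library) to 1.86 (without the first control library) when 1 library was left out, and was 0.97 without the second control library.

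In T>C reads the TOB1 pattern was flatter. They stood at 182 and 133 CPM in control, 160 and 223 CPM with SRPIN340, 130 and 143 CPM with Endovion, 225 and 274 CPM with THZ531, and 161 and 193 CPM with the combination. THZ531 alone lay above control without overlap, by 0.65 ± 0.20 on the log2 scale. With Endovion the difference from control was -0.22 ± 0.20, and the combination lay below THZ531 by -0.49 ± 0.20, without overlap. Both measures of TOB1 rest on 149 to 356 T>C reads and 721 to 2783 reads per library.

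The labelled share of TOB1 was lower in all 8 treated libraries than in either control library. It was 18.4% and 23.0% in control, with exact 95% intervals of 16.5% to 20.4% and 20.0% to 26.3%. It was 14.8% and 12.8% with SRPIN340, 10.1% and 11.4% with Endovion, 15.1% and 10.6% with THZ531, and 12% and 10.5% with the combination. Relative to the whole library, the log2 difference from control was -0.92 ± 0.21 with Endovion, -0.88 ± 0.21 with the combination, -0.74 ± 0.20 with THZ531 and -0.60 ± 0.21 with SRPIN340. The combination differed from THZ531 by -0.14 ± 0.20. Without the second control library, which had the highest share and the fewest TOB1 reads, the Endovion value was -0.71.

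BTG3, also called ANA, was higher in all reads with THZ531 and lower again when Endovion was added. It stood at 79.2 and 82.4 CPM in control, 80.7 and 74.5 CPM with SRPIN340, 60.5 and 71.9 CPM with Endovion, 114 and 135 CPM with THZ531, and 77.9 and 89.6 CPM with the combination. The log2 difference was 0.63 ± 0.13 for THZ531 against control and -0.57 ± 0.13 for the combination against THZ531, both without overlap. The fit called the first of these and not the second. The combination overlapped control, at 0.05 ± 0.13. With Endovion alone BTG3 lay below control without overlap, at -0.29 ± 0.13.

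The T>C reads of BTG3 were few, 47 to 91 per library, and their groups mostly overlapped. They stood at 57.3 and 38.5 CPM in control, 59.2 and 65.1 CPM with THZ531, and 47.4 and 66.9 CPM with the combination. The log2 difference was 0.36 ± 0.31 for THZ531 against control and -0.12 ± 0.32 for the combination against THZ531. The lower level of the combination in all reads, itself not called, was thus not detectable in T>C reads at this depth. The labelled share lay between 2.45% and 4.00% in the 10 libraries, and the 2 control libraries marked both ends of that range.

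TOB2 was lower in all reads in control than in any treated group. It stood at 113 and 89.8 CPM in control, 126 and 120 CPM with SRPIN340, 121 and 115 CPM with Endovion, 145 and 116 CPM with THZ531, and 142 and 143 CPM with the combination. The log2 difference from control was 0.22 ± 0.13 with Endovion, 0.28 ± 0.13 with SRPIN340, 0.36 ± 0.13 with THZ531 and 0.49 ± 0.13 with the combination, which overlapped THZ531. Its T>C reads, 85.1 to 154 CPM, had no difference from control larger than 0.28 ± 0.23. The labelled share was 5.32% and 6.04% in control, 4.43% and 3.61% with SRPIN340 and 4.16% and 4.06% with the combination, a log2 difference of -0.44 ± 0.20 and -0.34 ± 0.20.

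BTG2, the p53 target of the family, was the least read member, with 12 to 41 T>C reads and 100 to 318 reads per library. Its T>C reads stood at 26.4 and 30.5 CPM in control, 21.6 and 20.0 CPM with SRPIN340, 18.4 and 26.9 CPM with Endovion, 11.1 and 20.3 CPM with THZ531, and 16.9 and 11.8 CPM with the combination. The THZ531 and combination libraries lay below both control libraries, at -0.89 ± 0.48 and -0.97 ± 0.49 on the log2 scale. In all reads the differences were -0.34 ± 0.24 and -0.43 ± 0.24, and with SRPIN340 BTG2 lay above control, at 0.32 ± 0.23. Its labelled share spanned 8.76% (exact 95% interval 4.61% to 14.8%) to 21.7% (15.8% to 28.6%), so the depth sets no clear order of the groups.

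**Figure D3:**
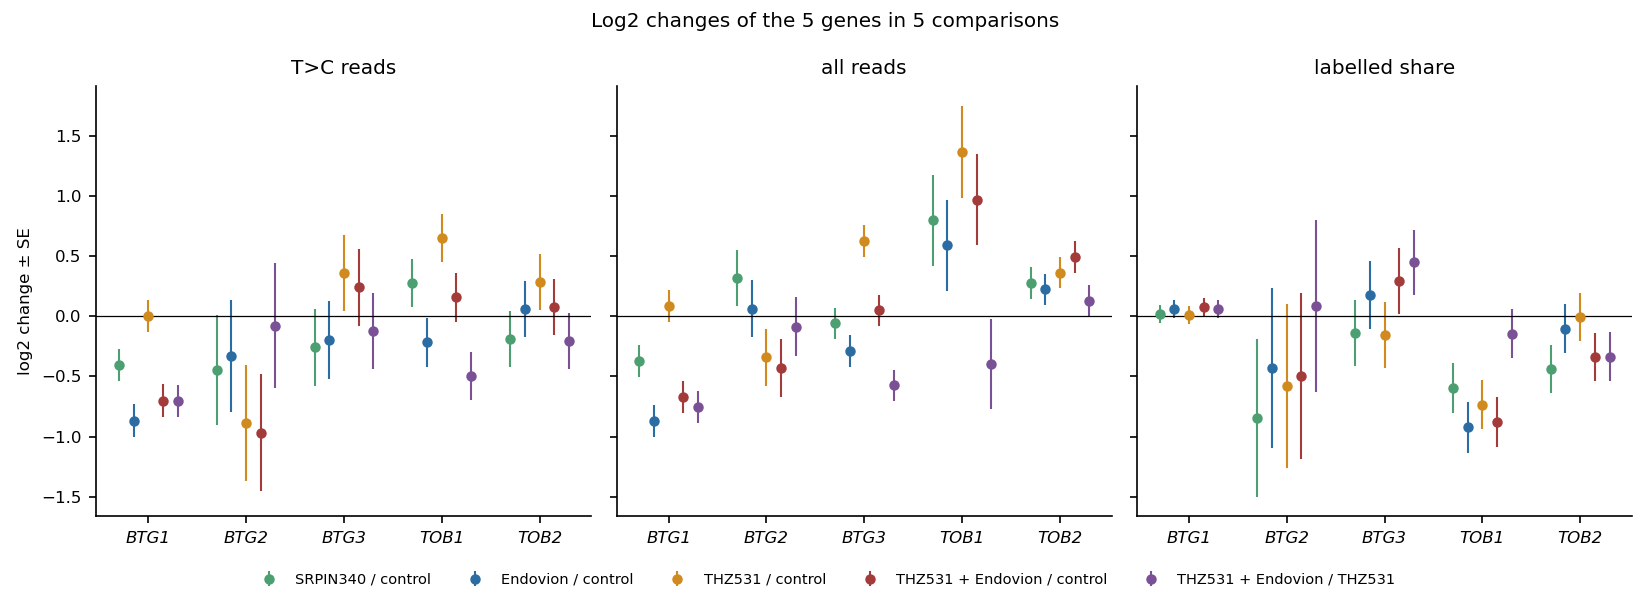
Log2 difference ± SE for the 5 genes in T>C reads, all reads and labelled share (relative to the whole library), with 1 colour for each of 5 comparisons; the comparisons against control share the same 2 control libraries. BTG1 lies below 0 in T>C reads and all reads and near 0 in share wherever Endovion was given, and TOB1 lies above 0 in all reads and below 0 in share in the 4 comparisons against control.

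Against control, the genes of the family did not all differ in 1 direction in any comparison. In T>C reads of the combination against THZ531 all 5 lay below 0, from -0.70 to -0.08, with BTG2, BTG3 and TOB2 within 1 SE of 0. The median log2 difference of the 5 in T>C reads was -0.22 with Endovion, -0.26 with SRPIN340, 0.28 with THZ531, 0.08 with the combination, and -0.20 for the combination against THZ531, while the median over all genes tested lay between -0.02 and 0.02 in each. In all reads the medians were 0.06, 0.28, 0.36, 0.05 and -0.40 in the same order, against -0.01 to 0.03 over all genes. In T>C reads of the combination against THZ531, BTG1 and TOB1 did not overlap between the groups. Their sign held with any library left out, which such a separation of 2 libraries per group all but fixes in advance. The share of all genes without overlap in this comparison was not counted, so nothing is read from the separation. BTG2 (-0.08 ± 0.52), BTG3 (-0.12 ± 0.32) and TOB2 (-0.20 ± 0.23) overlapped. Their differences turned positive when 1 library was left out, to 0.39 for BTG2 without the second THZ531 library, 0.11 for BTG3 without the first combination library and 0.14 for TOB2 without the first THZ531 library.

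At an adjusted p under 0.05 (edgeR quasi-likelihood, Benjamini-Hochberg over all genes tested), the fit called 0 of the 5 in T>C reads with SRPIN340, where 1.04% of all genes were called, and BTG1 with Endovion, where 2.66% were. It called TOB1 with THZ531 (7.46% of all genes), and BTG1 in the combination against control (8.12%) and against THZ531 (0.322%). In all reads it called 0 with SRPIN340 (1.96%), BTG1 with Endovion (11.4%), BTG3, TOB1 and TOB2 with THZ531 (30.7%), BTG1 and TOB2 in the combination against control (29%), and BTG1 in the combination against THZ531 (0.511%). For the share it called TOB1 with Endovion (0.442%) and with the combination (1.02%), and 0 of the 5 with SRPIN340 (0.181%), with THZ531 (0.342%) and in the combination against THZ531. In that last comparison edgeR called 0 genes in all, and 495 genes had an unadjusted p under 0.05. Since the 5 genes were chosen on these comparisons, nothing is read from these counts. How the calls fared in other settings is likewise a description, since those settings re-fit the same libraries and lend the calls no support. The BTG1 calls with Endovion held in all 9 alternative settings for T>C reads, all 8 for all reads and all 10 fits that left out 1 library. So did the BTG1 call in all reads of the combination against control, while the same call in T>C reads was lost without the first combination library. The BTG1 call in T>C reads of the combination against THZ531 was lost without either THZ531 library, without the first combination library and with the plain sum of intervals, and the call in all reads in these settings and with a fit of 2 groups alone. The TOB1 call with THZ531 in T>C reads was lost without the second control or the second THZ531 library and in 3 of 9 alternatives. In all reads with THZ531, the BTG3 call was lost only without the second THZ531 library, the TOB1 call in 3 of 8 alternatives and 6 of 10 fits with a library left out, and the TOB2 call in 5 of 8 and 8 of 10; without the second control library TOB2 came to 0.17. The TOB2 call with the combination was lost without the second control library (0.30), without the first combination library and with upper-quartile factors. The TOB1 share calls were lost without the second control library and without either combination library, and the Endovion one without either Endovion library too.

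The genes whose T>C reads ran most like each member over the 10 libraries were ranked by Pearson's r of log2(CPM + 1), among genes that had 20 or more T>C reads throughout. For BTG1 these were THYN1 (r = 0.953), NOP16 (0.953), a nucleolar ribosome biogenesis protein, and PRR7 (0.943). For TOB1 they were PUM3 (0.941) and SRXN1 (0.924), which had the same counts as the overlapping gene ENSG00000270299. For BTG2 they were TINF2 (0.945), a telomere shelterin component, ZNF689 (0.917) and the cohesin subunit STAG2 (0.902). For BTG3 they were PGAP1 (0.927), POLR3B (0.910) and HAUS2 (0.900), and for TOB2 LDOC1 (0.888), NPC2 (0.850) and GNPTG (0.845). These are the best of 4778 or 4779 genes over 10 libraries that share groups, and are given as a description. Between the members themselves r ranged from -0.585 (BTG2 and TOB2) to 0.701 (BTG3 and TOB1).

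Around the family, the genes of tail removal were read from a list of 20, of which 18 were tested in T>C reads. The list held the CCR4-NOT subunits, the PAN2-PAN3 and PARN nucleases and the poly(A)-binding proteins. This list and the 2 that follow were chosen with earlier results of these data known. Their adjusted p-values and counts of called genes are therefore a description and not an independent test. The poly(A)-binding genes PABPC1 and PABPC4 rose in each of the 4 treatments against control. PABPC4 had T>C reads at 82.4 and 36.9 CPM in control, 177 and 153 CPM with SRPIN340, 172 and 190 CPM with Endovion, 148 and 173 CPM with THZ531, and 202 and 172 CPM with the combination. All treated libraries lay above both control libraries, and the second control library lay well below the first. The log2 rise was 1.44 ± 0.23 with SRPIN340 (edgeR adjusted p = 0.000159), 1.57 ± 0.24 with Endovion (8.05e-06), 1.40 ± 0.24 with THZ531 (4.14e-05) and 1.62 ± 0.24 with the combination (1.63e-06). Without the second control library these became 1.0 (SRPIN340, no longer called), 1.13, 0.95 and 1.18.

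PABPC1, the family's direct partner, rose by 0.88 ± 0.16 with SRPIN340 (edgeR adjusted p = 0.000804), 0.99 ± 0.16 with Endovion (3.96e-05), 0.87 ± 0.16 with THZ531 (0.000204) and 1.12 ± 0.16 with the combination (1.62e-06), and its SRPIN340 call did not hold without the second control library. PABPC1 has many near-identical pseudogenes, so its reads are uncertain to that extent. The deadenylase CNOT8 rose with Endovion, by 1.08 ± 0.32 (edgeR adjusted p = 0.0439), and with the combination, by 1.12 ± 0.32 (0.0164), and neither call held without the second control library. The first was also lost without either Endovion library and in 5 of 9 alternatives, and the second without the second combination library. Its paralog CNOT7 fell with the combination, by 0.57 ± 0.16 on the log2 scale (edgeR adjusted p = 0.0143), as did the noncatalytic subunits CNOT2 (by 0.66 ± 0.19, 0.0202) and CNOT11 (by 0.65 ± 0.19, 0.0251). None of these 3 calls held without the first control library, without the second, or without at least 1 of the combination libraries. The other 12 to 16 of the 18 tested genes did not pass in T>C reads in these comparisons. In T>C reads the fit called 2 of the 18 with SRPIN340 and 3 with Endovion, where 1.04% and 2.66% of all genes were called. It called 2 with THZ531 and 6 with the combination, where 7.46% and 8.12% were. Against THZ531 the combination called 0 of the 18, where 0.322% of all genes were called. The smallest p were those of CNOT7 (-0.30 ± 0.16, edgeR adjusted p = 0.678) and CNOT1 (0.49 ± 0.29, 0.728).

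In T>C reads the median log2 difference of the 18 tested genes lay between 0.02 and 0.20 over the 5 comparisons. In all reads, 5 of 19 tested genes were up with Endovion, 6 up and 1 down with THZ531, and 8 up and 1 down with the combination. The genes called up in all reads with the combination were CNOT4, CNOT6, CNOT8, PAN3, PABPC1, PABPC4, PABPN1 and the PABPC1 partner PAIP1, and CNOT11 was down. Of all genes tested in all reads, 8.9% were up with Endovion, 16.6% up and 14.1% down with THZ531, and 16.6% up and 12.4% down with the combination.

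The second list held 20 RNA-binding adaptors that bring CCR4-NOT to chosen mRNAs, of which 17 were tested in T>C reads. ZFP36L1, which binds AU-rich elements, rose with THZ531 from 234 and 220 CPM to 428 and 423 CPM, by 0.91 ± 0.17 (edgeR adjusted p = 0.000153). With Endovion it stood at 206 and 245 CPM, overlapping control, and with the combination at 289 and 340 CPM, at 0.47 ± 0.17 against control (edgeR adjusted p = 0.0729). TNRC6B, a partner of Argonaute proteins, fell with THZ531 by 0.73 ± 0.19 on the log2 scale (edgeR adjusted p = 0.0101), a call that did not hold without either THZ531 library or the second control library. PUM2, a Pumilio protein, rose in the combination against THZ531, from 311 and 427 CPM to 546 and 604 CPM, by 0.65 ± 0.16 (edgeR adjusted p = 0.0426). That call was lost in 3 of 9 alternatives and in 4 of the 10 fits that left out 1 library (the first SRPIN340, the first THZ531 and either combination library). No adaptor passed with SRPIN340 or Endovion, where PUM2 had the smallest p (0.36 ± 0.15, edgeR adjusted p = 0.358, and 0.47 ± 0.16, 0.0896). In T>C reads the fit called 2 of the 17 with THZ531 (7.46% of all genes), 0 with the combination against control (8.12%) and 1 against THZ531 (0.322%). In all reads 9 of 19 tested adaptors were up with the combination, where 16.6% of all genes were up. With THZ531 4 were up and 2 down, where 16.6% of all genes were up and 14.1% down. The median of the list in T>C reads lay between -0.14 and 0.29.

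The third list held 21 protein partners of the family and antiproliferative or p53-linked genes, of which 20 were tested in T>C reads. CDKN1B, the cyclin-dependent kinase inhibitor p27, fell with THZ531 from 220 and 237 CPM to 115 and 111 CPM, by 1.01 ± 0.19 on the log2 scale (edgeR adjusted p = 0.000163), and with the combination by 0.71 ± 0.19 (0.00876). GADD45A, a stress and p53 target gene, rose with THZ531 from 26.4 and 20.1 CPM to 58.6 and 58.0 CPM, by 1.32 ± 0.38 (edgeR adjusted p = 0.0226), and with the combination by 1.29 ± 0.39 (0.0247). CCNG1, another p53 target gene, rose with the combination by 1.39 ± 0.35 (edgeR adjusted p = 0.00607). Without being called, it also lay above control by 0.97 ± 0.35 with SRPIN340, 1.11 ± 0.35 with Endovion and 1.05 ± 0.35 with THZ531. The retinoblastoma gene RB1 rose with Endovion by 1.75 ± 0.52 (edgeR adjusted p = 0.0490) and with the combination by 1.77 ± 0.52 (0.0215), on 5 to 52 T>C reads per library. Its Endovion call was lost in 5 of 9 alternatives and 6 of 10 fits with a library left out. The calls of GADD45A, CCNG1 and RB1, and that of CDKN1B with the combination, did not hold without the second control library, and each was lost without at least 1 treated library as well, whereas CDKN1B with THZ531 held in every setting run. In T>C reads no gene of the list passed with SRPIN340 (1.04% of all genes) or in the combination against THZ531 (0.322%). In the latter, SMAD1 (1.23 ± 0.52, edgeR adjusted p = 0.514) and RB1 (0.87 ± 0.49, 0.712) had the smallest p. In all reads 1 of 21 tested, CCNG1, was up with SRPIN340 (0.74 ± 0.17, edgeR adjusted p = 0.0410), where 1.82% of all genes were. With Endovion 4 of 21 were up in all reads, against 8.9% of all genes. These were CDKN1B (0.45 ± 0.13), SESN1, CCNG1 and FOXO3, and 0 were down. In T>C reads the fit called 1 of the 20 with Endovion (2.66% of all genes), 2 with THZ531 (7.46%) and 4 with the combination (8.12%). In all reads with THZ531, 6 of 21 tested were up and 2, CCND1 and CDKN1B, were down. Of all genes 16.6% were up and 14.1% down there. HOXB9, the partner of BTG1 and BTG2, was among those up, by 0.83 ± 0.14 (edgeR adjusted p = 0.000433), but was not called in T>C reads in any comparison. The median of the list in T>C reads lay between -0.05 and 0.14.

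**Figure D4:**
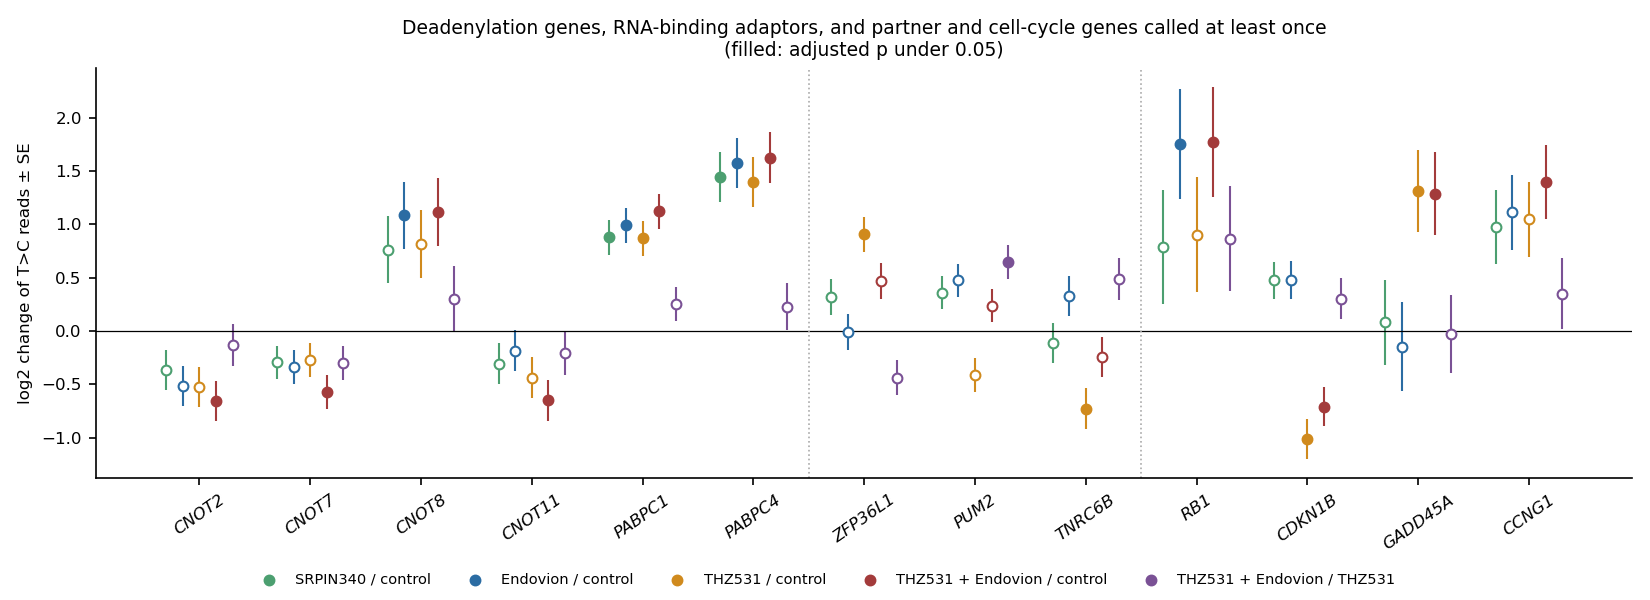
Log2 difference in T>C reads ± SE for the 13 genes of the 3 lists called in at least 1 of 5 comparisons, with filled points for an edgeR adjusted p under 0.05 and dotted lines between the tail-removal genes, the adaptors, and the partner and p53-linked genes. PABPC1 and PABPC4 are filled and above 0 in the 4 comparisons against control, and CDKN1B is filled and below 0 where THZ531 was compared with control, alone or in the combination.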

How the data were processed

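The 5 genes, the 3 gene lists and the settings were chosen with earlier results of these data known. The authors prepared QuantSeq 3′ libraries with unique molecular identifiers from 22RV1 cells and called T>C changes with SLAM-DUNK on hg38; whether the identifiers were collapsed is not given in the sources used here. Bowtie2 2.3.4.1, SAMtools 1.6 and DESeq2 1.38.2 are named in the submitters' processing notes. The deposited tables hold, for each 3′ interval, raw counts of reads, of T>C reads, of covered T positions and of conversions, a conversion rate as a fraction, and an RPM value that the authors normalized, used here only as a score to recover the mapped reads per library. Mapped reads numbered 35517462 to 53592904 per library, and depth sets counting error only: libraries of a group differed by 3.38 to 4.66 times counting error (chi-square per degree of freedom).

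Of 104653 intervals, 96427 lay off alternative contigs and 92826 matched GENCODE v44 by transcript; 3.53% of T>C reads were unmatched. Overlapping intervals of 1 gene were reduced to the most-read one, which left 57531 intervals in 31015 genes, and counts were summed per gene. The T content of 9946 of 9946 intervals checked equalled that of hg38. Counts were fitted with edgeR 4.0.16 (R 4.3.3): TMM factors, filterByExpr, robust quasi-likelihood, group means over all 10 libraries (5 residual degrees of freedom), Benjamini-Hochberg over 9946 genes for T>C reads and share and 14689 genes for all reads. The share was fitted as the interaction of group with read class (T>C reads against other reads), with library as block and TMM factors within each class, so its change is relative to the library. CPM values are counts per 1e6 of TMM-scaled library totals, except those of the cell type markers, which are per 1e6 gene reads of the library without TMM factors. No member of the family shared an interval with another counted gene. The fits were tested on simulated data.

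The lists were the genes of tail removal (20), the RNA-binding adaptors (20), and the partners and p53-linked genes (21). Named from each list and comparison were genes at an adjusted p under 0.05 with a log2 change of at least 1 in T>C reads, otherwise the 2 with the smallest p; other genes that passed, and TNRC6B, CNOT11, HOXB9 and PAIP1 among them, were named after their values were seen. Sequences came from hg38 and from RefSeq promoters on GRCh38.p14, in which 5 of 5 members matched (6 records, TOB1 with 2). Alternatives were DESeq2 1.42.0, upper-quartile factors, other count filters, the replicate number as a block, other interval rules, scaling of T>C reads by all reads, fits of 2 groups alone, and leaving out each library. Same-numbered libraries did not deviate together (10 pairs of groups, r from -0.0697 to 0.0600). In the labels, THZ531 is given by name, and its dose differs between the series text (150 nM) and the methods (100 nM).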

Additional observations from a re-analysis of the deposited data

Results flagged for a closer look

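PABPC4, one of the poly(A)-binding genes around the family, responded to Endovion differently with and without THZ531 in T>C reads. The interaction was -1.345 on the log2 scale (edgeR adjusted p = 0.0419), with a rise of 1.57 ± 0.24 for Endovion against control and 0.23 ± 0.22 for the combination against THZ531. The interaction was not called in 5 of 8 alternatives and in 6 of the 10 fits that left out 1 library, and it came to -0.90 without the second control library, in which PABPC4 had its lowest level (36.9 CPM against 82.4 CPM in the first). Endovion and THZ531 each raised PABPC4 against the same 2 control libraries, and the part of those libraries in the interaction was not tested further.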

How the results depend on the processing

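No called value of the 5 genes reversed its direction in any setting run. Of 600 values of single members under the alternatives other than leaving out a library, 6 moved by more than the spread between replicates: the BTG1 share without the low-count filter (-0.04 with SRPIN340, -0.01 with Endovion, -0.10 with THZ531, -0.02 with the combination), the BTG1 share with THZ531 under the plain sum of intervals (-0.05), and BTG3 in all reads of the combination under upper-quartile factors (-0.10, which was also the median of the 5 there, -0.0988). Of 750 values with 1 library left out, 72 moved. The cause was not tested.

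With the plain sum of intervals, the count of members called was 0 in T>C reads with THZ531 and in the combination against THZ531, 0 in all reads of the combination against THZ531, and 0 in the share with Endovion and with the combination. In the same setting tail-removal genes called numbered 0 with SRPIN340 and 2 with the combination, adaptors 0 in the combination against THZ531, and partner and p53-linked genes 0 with Endovion, 1 with THZ531 and 0 with the combination. With DESeq2, members called were 0 in T>C reads with THZ531 and 2 in all reads of the combination against THZ531, and partner genes called were 0 with Endovion, 1 with THZ531 and 2 with the combination. With 2-group fits, members called were 0 in T>C reads with THZ531, 1 in all reads with THZ531, 0 in all reads of the combination against THZ531 and 0 in the share with Endovion, and called were 0 adaptors in the combination against THZ531 and 0 partner genes with Endovion. With upper-quartile factors, members called in all reads were 2 with Endovion, 1 with the combination and 2 in the combination against THZ531. Partner genes called with Endovion were 0 in that setting. Over the 8 alternatives for all reads, all genes called numbered 1415 to 2374 with Endovion and 3632 to 4584 with the combination. In the combination against THZ531 all genes called numbered 13 to 355. The count of all genes with upper-quartile factors alone is not given here. Without the low-count filter, members called were 1 in all reads with SRPIN340, 2 in all reads of the combination against THZ531 and 1 in the share with THZ531. With T>C reads scaled by all reads, adaptors called in the combination against THZ531 and partner genes called with Endovion were both 0. These counts of members and list genes were not each set against all genes in the same setting, so nothing is read from them.

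With 1 library left out, the median of the 5 in T>C reads ranged from -0.42 to 0.0361 with Endovion, 0.0019 to 0.33 with THZ531 and -0.49 to -0.20 in the combination against THZ531. In all reads it ranged from 0.0857 to 0.40 with SRPIN340, 0.15 to 0.54 with THZ531 and -0.70 to -0.0301 in the combination against THZ531. For the share it ranged from -0.39 to -0.11 with THZ531, -0.47 to 0.12 with the combination and -0.27 to 0.15 in the combination against THZ531. Members called ranged from 0 to 1 in T>C reads with THZ531, with the combination and in the combination against THZ531, and from 0 to 1 in the share with Endovion, THZ531 and the combination. In all reads they ranged from 1 to 3 with THZ531 and with the combination and from 0 to 2 in the combination against THZ531. Tail-removal genes called ranged from 0 to 2 with SRPIN340 and 3 to 6 with the combination, adaptors from 1 to 2 with THZ531 and 0 to 1 in the combination against THZ531, and partner genes from 0 to 1 with Endovion, 1 to 2 with THZ531 and 0 to 4 with the combination.

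The count of all genes called, from which the percentages beside the 5 genes come, moved by over 1.5 times in these settings. In T>C reads, the plain sum gave 2 against 103 with SRPIN340, 46 against 265 with Endovion, 247 against 742 with THZ531, 273 against 808 with the combination and 0 against 32 in the combination against THZ531; 2-group fits gave 32 with SRPIN340 and 481 with THZ531; no low-count filter gave 156 with SRPIN340. In all reads with SRPIN340 (288 in the main setting), DESeq2 gave 906, at least 20 reads 163, no filter 1211, the plain sum 10, the replicate block 96 and 2-group fits 5. In all reads of the combination against THZ531 (75), DESeq2 gave 257, no filter 355, the plain sum 13 and 2-group fits 26. For the share (18, 44, 34, 101 and 0 with SRPIN340, Endovion, THZ531, the combination, and the combination against THZ531), no filter gave 62, 98, 120, 203 and 2, the plain sum 1, 1, 1, 3 and 0, and 2-group fits 3 with SRPIN340, 12 with THZ531 and 7 in the combination against THZ531. With 1 library left out, and in the same order of comparisons, the count in T>C reads ranged over 12 to 214, 89 to 401, 242 to 733, 326 to 824 and 3 to 47, in all reads over 3 to 1438, 226 to 2369, 2022 to 4324, 2220 to 4527 and 8 to 146, and for the share over 1 to 75, 5 to 94, 5 to 90, 10 to 178 and 0 to 2. Leaving out the second control library gave 12, 89, 389 and 341 in T>C reads and 9, 226, 2569 and 2220 in all reads against control.

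The library numbers did not pair the samples. With the replicate number as a block, BTG1 in T>C reads was -0.87 with Endovion and -0.71 in the combination against THZ531, and members called in all reads with THZ531 were 2, since TOB1 was no longer called; the block changed no other count of members called. Few T>C reads of BTG2 and BTG3 limit what their values show, and 2 libraries per group limit every comparison.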
